A study of Mus musculus with 72 samples.

Results

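The maturation of the olfactory epithelium between birth and P14 (P, postnatal day) was followed in control mice that were not given doxycycline (DOX). Olfactory epithelium is the sensory lining of the nose. The comparison sets 3 libraries of P14 against 3 libraries of P0, grouped by their labels, out of 72 libraries of the series. Both ages had the genotype Omp-IRES-tTA, in which the tTA activator, switched by tetracyclines, is made from the gene of olfactory marker protein (Omp), so every library of this comparison carries that insertion. The labels give no copy number of the insertion and do not say whether libraries of an age come from separate animals, so p-values cover no more than the spread between these libraries. Control libraries at P3 (2), P7 (2) and P10 (3) are given as intermediate points and were not tested. For comparison there are the same genotype given DOX from P0, with 3 libraries at P14 and 3 at P1, and Fzd1lacZ mice without DOX. Fzd1lacZ mice carry a lacZ knockout allele of the Wnt receptor gene Fzd1, homozygous by the library titles. They have 3 libraries at P14 and 3 at P0.

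The olfactory epithelium keeps making neurons after birth. Horizontal and globose basal cells divide near its base, their progeny become immature and then mature sensory neurons that each use an odorant receptor, and sustentacular cells and the glands of Bowman around them carry detoxifying enzymes and secrete mucus. Odorant-binding proteins and other lipocalins are small secreted carriers of odorants and pheromones made by nasal glands.

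RNA was sequenced as ribosome-depleted total RNA. Gene counts per library were 3900387, 3092047 and 4135387 at P14, against 6774918, 6228447 and 5447469 at P0, and reads in genes made up 23.1% to 30.0% of all reads at P14 and 38.1% to 46.8% at P0. A family of 13 predicted genes of the Gm10800 type, which resemble satellite repeats, held 7.36% to 15.2% of gene counts at P14 and 0.0540% to 0.678% at P0. The titles of the P14 libraries carry 1 ID series and those of the P0 libraries another, so age and ID series cannot be told apart here. In the control with DOX, the P14 and P1 titles share 1 ID series. P14 replicate 3 held 1425 counts of Xist, which females express, beside 217 counts of 4 Y-linked genes, and P0 replicate 3 held 10317 beside 180, so both held RNA of both sexes. P14 replicate 1 held 156 counts of Xist beside 823 Y-linked counts, while the other 3 libraries had 14 to 29 counts of Xist beside 705 to 2041 Y-linked counts. Levels below are CPM (gene counts scaled to equal library totals) with the scaling factors of edgeR, given in the order of replicates 1, 2 and 3. A gene is called higher or lower where its Benjamini-Hochberg adjusted p in the quasi-likelihood test of edgeR, across the whole set of 22144 genes, was below 0.05, and SE is the standard error of a log2 fold change. Changes given without a unit are log2 fold changes, P14 over P0. In bulk tissue, a change in the number of cells of a type and a change in RNA per cell cannot be told apart.

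Of the 22144 genes tested, 5207 (23.5%) were called higher at P14 and 4909 (22.2%) lower. With at least a 2-fold change these were 3526 (15.9%) and 2050 (9.26%). Without both libraries that hold RNA of both sexes, 3427 were higher and 3396 lower, and 6642 of the 10116 calls were made in both fits, all in the same direction. All 3 P14 libraries were above all 3 P0 libraries for 7175 genes (32.4%) and below them for 6169 (27.9%). Among the 13369 genes with a mean of at least 5 CPM, 900 (6.73%) rose at least 2-fold and 1495 (11.2%) fell at least 2-fold. Among the 8775 genes below that level, 2626 (29.9%) rose at least 2-fold and 555 (6.32%) fell. The 15 largest rises held 8 genes of odorant-binding proteins, other lipocalins, major urinary proteins, secretoglobins and BPI-fold proteins, and the 15 largest falls held the BPI-fold genes Bpifb5, Bpifb9a and Bpifb9b. The direction split differed in limma on log2(TPM + 1), where unit, scaling and test change together. It was 857 higher and 6517 lower, 11.6% of calls higher in place of 51.5%, and the median gene stood at -0.32 there against 0.06 on the log2 scale of the counts.

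**Figure D1:**
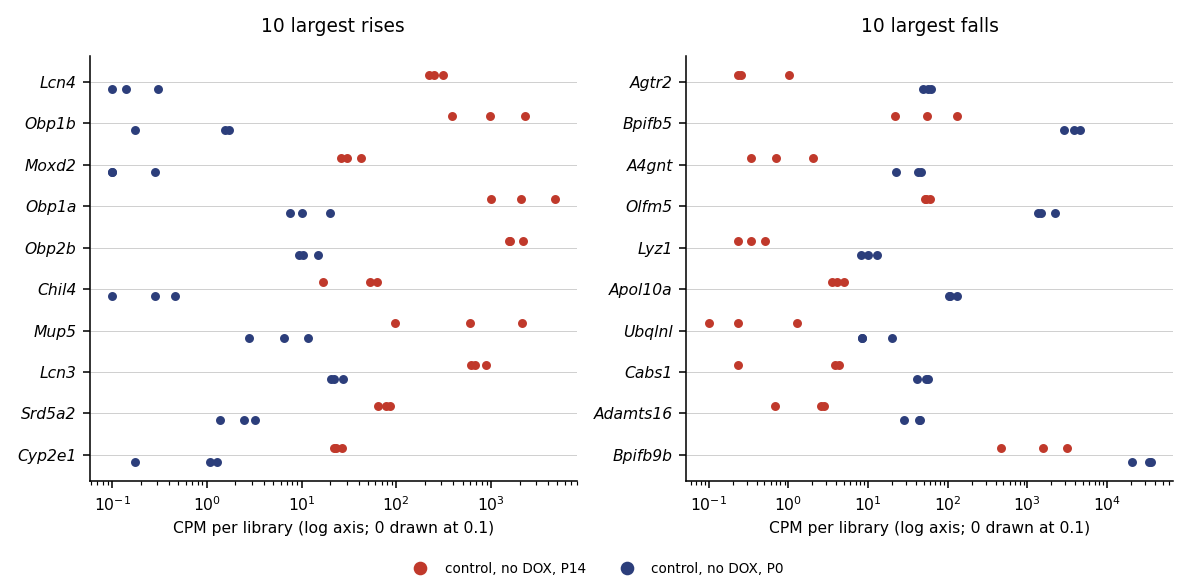
Each point is 1 control library without DOX, with P14 above P0 for each gene, on a log axis of CPM with 0 drawn at 0.1. Left, the 10 largest rises from Lcn4, at 10.496 on the log2 scale, and right, the 10 largest falls from Agtr2, at -6.87. The P14 and P0 libraries do not overlap for any of these genes, which was a condition for naming them, and the P14 values spread most widely, among the rises, for Mup5.

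Genes of odorant carriers were among the steepest rises. Lcn4 (chromosome 2, 26667674 to 26671282, build mm10), a lipocalin of nasal and vomeronasal glands, had 251, 314 and 223 CPM at P14, against 0.141, 0.309 and 0 CPM at P0, a log2 fold change of 10.496 (SE 0.89, edgeR adjusted p = 6.94e-14). Every P14 library was above 200 CPM and no P0 library reached 1 CPM. Lcn3, another lipocalin of these glands (chromosome 2, 25765569 to 25768099) had 609, 887 and 682 CPM at P14, against 21.8, 20.6 and 27.1 CPM at P0, a change of 4.97 (SE 0.73). Obp2b (chromosome 2, 25737009 to 25740097), an odorant-binding protein, had 1533, 2173 and 1585 CPM at P14, against 9.46, 14.8 and 10.2 CPM at P0, a change of 7.26 (SE 0.74, edgeR adjusted p = 1.24e-11). The P14 libraries of both genes lay close together and far above all P0 libraries, and ages that do not overlap were a condition for naming the largest rises.

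On the X chromosome the odorant-binding protein genes Obp1a (chromosome X, 78085505 to 78091374) and Obp1b (chromosome X, 78186777 to 78192292) rose as well, with a wide spread among the P14 libraries. Obp1a had 4686, 2049 and 1006 CPM at P14, against 20.2, 10.2 and 7.64 CPM at P0, a change of 7.65 (SE 1.06, edgeR adjusted p = 3.91e-08). Obp1b had 2258, 971 and 389 CPM at P14, against 1.695, 1.55 and 0.174 CPM at P0, a change of 9.96 (SE 0.99, edgeR adjusted p = 6.61e-12). Mup5 (chromosome 4, 61831319 to 61835233), a pheromone-carrying major urinary protein gene, had 2099, 598 and 96.7 CPM at P14, against 11.7, 6.49 and 2.78 CPM at P0, a change of 7.02 (SE 1.18, edgeR adjusted p = 2.52e-06). In these 3 genes P14 replicate 1 was the highest and replicate 3 the lowest. Even the lowest P14 library was above all P0 libraries, which was a condition for naming the largest rises. Mup4 had the same order, at 675, 185 and 46.7 CPM at P14, against 34.04, 20.4 and 17.4 CPM at P0. The transcripts of Obp1a and Obp1b share no 50-base stretch, those of Obp2a and Obp2b share 11.7% of the stretches of Obp2a, and those of Mup4 and Mup5 share 10.96% of those of Mup5, so counts of the last pairs are less certain.

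Of the 17 tested members of the list of Bowman gland and nasal secretory genes, 11 rose and 3 fell, with a median of 2.82 against 0.06 for all genes tested. Scgb1c1, a secretoglobin of the olfactory mucosa, averaged 2439 ± 222 CPM at P14 and 146 ± 45.1 CPM at P0 (SD, n = 3 each), a change of 4.06 (SE 0.29). Gpx6, a glutathione peroxidase of the olfactory mucosa, rose by 2.81, and Dmbt1, a mucosal glycoprotein, by 2.82. The members that fell were the gel-forming mucin genes Muc5ac, at -1.902, and Muc5b, at -0.79, and Sox9, a transcription factor of gland development, at -1.49, all as log2 fold changes. Lcn11 was at 1730.4, 814 and 421 CPM at P14, against 2469, 3351 and 2551 CPM at P0, a log2 difference of -1.497 that did not pass the test (edgeR adjusted p = 0.121), and again P14 replicate 1 was the highest of its age. Summed over the list, levels were 10076 to 18757 CPM at P14 and 3571 to 5094 CPM at P0.

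Other secreted or metabolic genes rose with them. Moxd2, a copper-dependent monooxygenase relative of dopamine beta-hydroxylase, had 30.02, 26.001 and 41.98 CPM at P14, against 0.283, 0 and 0 CPM at P0, a change of 7.99 (SE 0.61, edgeR adjusted p = 1.40e-15). Srd5a2, a steroid 5-alpha-reductase, had 63.9, 76.99 and 85.9 CPM at P14, against 3.25, 2.47 and 1.39 CPM at P0, a change of 4.95 (SE 0.31). Neither gene overlapped between the ages, which was a condition for naming the largest rises. The chitinase-like genes Chil4 and Chil6 rose by 7.25 and 4.02, the sulfotransferase gene Sult6b1 by 4.56, and Dcpp2, which encodes a salivary-type secreted protein, by 3.94 on the log2 scale. Of the 50-base stretches of Dcpp2, 35.3% are shared with Dcpp3 and 29.9% with Dcpp1.

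A second set of secreted proteins went the other way. In the list of BPI-fold proteins, a family related to bactericidal/permeability-increasing protein, 6 of 9 rose and 3 fell. Bpifb5 (chromosome 2, 154223742 to 154240902) had 129.8, 55.4 and 21.9 CPM at P14, against 4645, 3892 and 2923 CPM at P0, a change of -5.79 (SE 1.18, edgeR adjusted p = 6.62e-05). Bpifb9b (chromosome 2, 154307227 to 154320646) had 3113, 1562 and 462 CPM at P14, against 35766, 33411 and 20485 CPM at P0, a change of -4.13 (SE 1.23, edgeR adjusted p = 0.00544). The lowest P0 library of Bpifb9b held several times the highest P14 library. Bpifb9a changed by -3.81 (SE 1.21), at 837, 402 and 107 CPM at P14, against 7271, 7198 and 4375 CPM at P0. P14 replicate 1 was the highest of its age in all 3. With the share of the Gm10800-type family as a covariate, Bpifb9b was at -2.71 (edgeR adjusted p = 0.123) and Bpifb9a at -2.301 (adjusted p = 0.189), and neither passed. Without P14 replicate 3 Bpifb9a was at -3.34 (adjusted p = 0.0511).

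From the same chromosome, Bpifb3 (chromosome 2, 153918230 to 153932996) rose, with 767, 630.1 and 808 CPM at P14, against 35.03, 35.4 and 27.9 CPM at P0, a change of 4.48 (SE 0.33, edgeR adjusted p = 6.68e-16). Its neighbours Bpifb6 and Bpifb4 rose by 1.95 and 1.44, and Bpifa1 by 0.78, on the log2 scale. Per unit of length Bpifa1 had the highest mean of the family at P14, at 2656 TPM. Bpifb9a and Bpifb9b are near-identical copies, and 63.4% of the 50-base stretches of Bpifb9a occur in Bpifb9b, so reads could be split or lost between them. Parts of their promoters are alike. Both promoters, of 300 bases, were compared without gaps at an offset of 7 bases. The comparison stops at the first run of more than 2 differing letters, where a gap would be needed, and leaves out the rest. The stretches below are from RefSeq promoters (GRCm38.p6, plus strand, chr2:154257629-154257844 and chr2:154307001-154307216), and capitals mark the 10 of 216 letters that differ between them.
Bpifb9a: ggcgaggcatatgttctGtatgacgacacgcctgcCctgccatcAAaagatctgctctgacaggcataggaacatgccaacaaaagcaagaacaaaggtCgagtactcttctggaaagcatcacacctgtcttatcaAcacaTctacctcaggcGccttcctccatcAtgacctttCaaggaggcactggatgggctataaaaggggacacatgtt
Bpifb9b: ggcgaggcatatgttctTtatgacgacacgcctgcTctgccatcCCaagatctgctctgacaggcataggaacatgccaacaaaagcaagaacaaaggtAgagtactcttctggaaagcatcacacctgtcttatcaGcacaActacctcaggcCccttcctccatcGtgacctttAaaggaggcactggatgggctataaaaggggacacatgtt

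Several other genes were far lower at P14 than at birth. Agtr2 (chromosome X, 21484544 to 21489164), the type 2 receptor of angiotensin II, had 0.257, 1.01 and 0.236 CPM at P14, against 49.6, 62.01 and 56.4 CPM at P0, a change of -6.87 (SE 0.63, edgeR adjusted p = 6.74e-13). Olfm5 (chromosome 7, 104153013 to 104164831), which encodes an olfactomedin-domain protein, had 60.6, 53.02 and 51.9 CPM at P14, against 1355, 1508 and 2232 CPM at P0, a change of -4.94 (SE 0.37, edgeR adjusted p = 6.68e-16). All P0 libraries of both genes lay far above all P14 libraries, and ages that do not overlap were a condition for naming the largest falls. Ubqlnl (chromosome 7, 104148259 to 104150556), a ubiquilin-like gene close to Olfm5, had 1.28, 0 and 0.236 CPM at P14, against 8.48, 8.51 and 20.3 CPM at P0, a change of -4.45. A4gnt, a glycosyltransferase of gland mucins, fell, at -5.08, Lyz1, a lysozyme, at -4.75, Apol10a, an apolipoprotein L, at -4.74, Cabs1 at -4.25, and Adamts16, a secreted metalloprotease, at -4.16 as log2 fold changes. Tfcp2l1, a transcription factor known from kidney and salivary ducts, had 59.3, 43.9 and 39.9 CPM at P14, against 459.5, 407 and 724 CPM at P0, a change of -3.47 (SE 0.38).

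In the list of mucosal defence genes, 1 of 18 members rose and 7 fell, with a median of -0.58. In Fzd1lacZ the median was 0.31, with 5 higher and 2 lower. In the control with DOX it was -0.81, with 3 higher and 6 lower. The riser in the control without DOX was Chil4. Besides Lyz1, Pglyrp1, which encodes a peptidoglycan-recognition protein, fell to 45.2, 33.4 and 30.4 CPM at P14, against 169, 216 and 164 CPM at P0, a change of -2.33 (SE 0.36), and Chil1, Cxcl17, Lyz2, Ltf (lactoferrin) and Reg3g (a C-type lectin) were called lower. With the Gm10800-type share in the fit as a covariate 2 of the 7 were called lower, Lyz1 and Pglyrp1. Of the 50-base stretches of Lyz1, 16.1% are shared with Lyz2.

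Enzymes that handle odorants and foreign chemicals were mostly higher at P14. Of 30 xenobiotic-metabolism genes tested, 18 rose and 1 fell, with a median of 0.97. Cyp2g1, a cytochrome P450 of sustentacular cells, had 3239, 3395 and 3814 CPM at P14, against 917, 579 and 610.0 CPM at P0, a change of 2.31 (SE 0.27, edgeR adjusted p = 4.63e-10). Cyp1a2 rose by 3.03, at 219.9, 233 and 254 CPM at P14, against 33.9, 22.3 and 30.6 CPM at P0. Neither overlapped between the ages. Cyp2e1, at 22.1, 23.3 and 26.4 CPM at P14, against 1.27, 1.08 and 0.174 CPM at P0, changed by 4.73 (SE 0.43). Cyp2a5, the nasal coumarin hydroxylase, averaged 4262 ± 164 CPM at P14 and 1057 ± 151 CPM at P0 (SD, n = 3 each), a log2 change of 2.01, and 28.1% of its 50-base stretches are shared with Cyp2a4. Per unit of length Cyp2g1 averaged 779.5 ± 165 TPM at P14 and 231 ± 74.9 TPM at P0 and Cyp2a5 1240.2 ± 155 TPM at P14 and 417 ± 112 TPM at P0. Cyp3a13, another P450 gene, rose by 2.69. Cyp2f2, Aldh1a1 and Gstp1 did not pass, at 0.07, 0.03 and -0.31, and Cyp2s1 was the member called lower, at -0.997.

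Of the sustentacular markers, 8 of 11 rose and Notch2, a receptor of the Notch pathway, fell, at -0.89. Sec14l3, a lipid-binding protein of these cells, had 1988, 1998 and 2189 CPM at P14, against 642, 613 and 714 CPM at P0, a change of 1.65 (SE 0.25). The keratin genes Krt8 and Krt18, which mark the same cells, did not pass, at -0.01 (edgeR adjusted p = 0.977) and 0.19 (adjusted p = 0.502). Sult1c1 and Ermn rose by 1.38 and 1.296 and did not pass in limma on log2(TPM + 1), at 0.802 (adjusted p = 0.0815) and 0.72 (adjusted p = 0.0732).

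**Figure D2:**
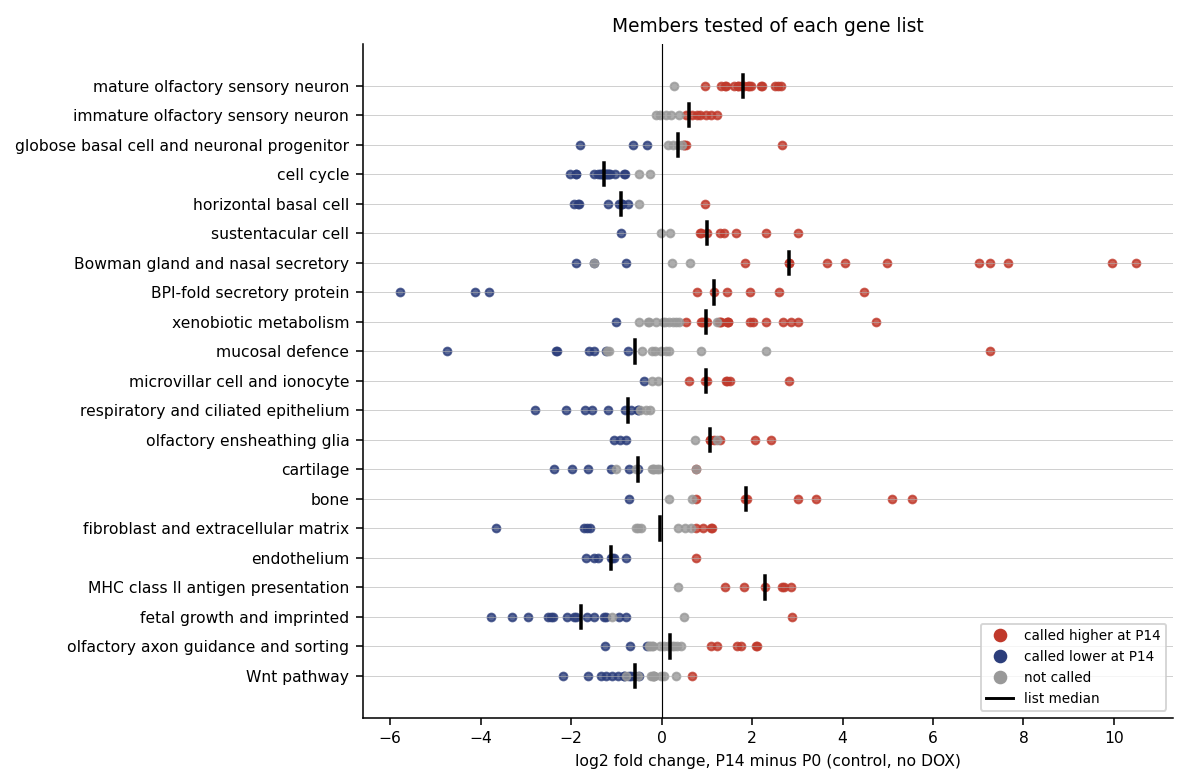
Every point is 1 tested member of a gene list, placed by its log2 fold change between P14 and P0, with the colour giving its call and the black bar the list median. Medians run from -1.78 for fetal growth and imprinted genes to 2.82 for Bowman gland and nasal secretory genes, and the median over all genes tested is 0.06.

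Markers of mature olfactory sensory neurons rose almost as a block. Of 18 tested, 17 rose, with a median of 1.797, and Slc24a4, a potassium-dependent sodium-calcium exchanger, did not pass at 0.27 (edgeR adjusted p = 0.188). Stoml3, a stomatin-like protein of olfactory cilia, had 885, 1035 and 1044 CPM at P14, against 213, 133 and 149.6 CPM at P0, a change of 2.58 (SE 0.31, edgeR adjusted p = 9.39e-10). Gng13, a G protein gamma subunit, had 271, 240.4 and 265 CPM at P14, against 60.9, 42.4 and 32.5 CPM at P0, a change of 2.51 (SE 0.296). Cnga2 and Cnga4, subunits of the cyclic-nucleotide-gated channel that opens in response to odorants, rose by 2.22 and 2.204 on the log2 scale. For all 4 genes the lowest P14 library was above the highest P0 library. Gnal, the olfactory G protein alpha subunit, rose by 1.76, Adcy3, the adenylyl cyclase of the same cascade, by 1.698, and Ano2, the chloride channel that follows it, by 1.94. Rtp1 and Rtp2, which help carry odorant receptors to the cell surface, rose by 1.596 and 1.92. Summed over the list, levels were 7279 to 8418 CPM at P14 and 1659 to 2416 CPM at P0.

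Omp (chromosome 7, 98143359 to 98145502) had 1329, 1384 and 1514 CPM at P14, against 287, 185 and 207 CPM at P0, a change of 2.64 (SE 0.35, edgeR adjusted p = 1.78e-08). Between these ages it was lower than at either, at 27.9 CPM at P3, 30.1 CPM at P7 and 51.6 CPM at P10 on average, while Stoml3 was at 300.2 CPM at P3, 405 CPM at P7 and 553 CPM at P10. In the control with DOX, Omp had 1373, 1444 and 1072 CPM at P14 and 228, 220.0 and 218 CPM at P1, and in Fzd1lacZ 1174, 3018 and 2475 CPM at P14 and 634, 515 and 616 CPM at P0. It was the only one of the 18 mature neuron markers whose mean lay below its P0 level at all 3 intermediate ages. Titles of the P3, P7 and P10 libraries carry other ID series than those of P0 and P14.

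Odorant receptor genes took 0.429% to 0.498% of gene counts at P14 and 0.109% to 0.182% at P0, with means of 0.459% ± 0.0350 and 0.145% ± 0.0365 (SD, n = 3 each). An exact permutation test of this share, 2-sided, gave p = 0.1, the smallest that 20 arrangements allow. At P3 the libraries held 0.285% and 0.241%, at P7 0.384% and 0.364%, and at P10 0.488%, 0.416% and 0.371%. At equal depth (2905869 gene counts), the expected number of receptor genes with a count was 1183 ± 10.8 at P14 and 945 ± 78.3 at P0 (SD, n = 3 each, exact permutation p = 0.1). It lay between 1096 and 1127 at P3, between 1206 and 1216 at P7 and between 1196 and 1209 at P10. All P14 libraries, between 1170.4 and 1190.0, lay above all P0 libraries, between 864 and 1021.

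Of 978 odorant receptor genes tested, 689 rose and 3 fell, and 953 had a positive log2 fold change. The median was 1.75, and the middle 50 percent of the genes lay between 1.17 and 2.45. Summed over the 978 genes, levels were 4139 to 4708 CPM at P14 and 1005 to 1676 CPM at P0. Called higher were 70.4% of the receptors, 30.6% of all genes with a mean under 5 CPM and 23.5% of all genes tested. The part of low level in the receptor change was not tested. Under other scalings the median was smaller but positive, at 1.07 with the Gm10800-type share in the fit, with 345 called higher, and 0.29 in limma on log2(TPM + 1), with 299 higher. Near-identical receptors can share or lose reads, so single genes are uncertain. The receptor with the highest mean, Olfr536, had 59.01, 56.7 and 67.7 CPM at P14, against 8.62, 2.78 and 10.9 CPM at P0, a change of 3.05 (SE 0.28, edgeR adjusted p = 5.67e-13). Olfr166 and Olfr309 rose by 2.89 and 2.57. Olfr15, at 22.1, 20.9 and 26.9 CPM at P14, against 22.7, 12.1 and 14.8 CPM at P0, did not pass at 0.495 (edgeR adjusted p = 0.053), and its ages overlap. It passed under 7 alternatives, with adjusted p of 0.00511 to 0.0429, and without P0 replicate 1 it was at 0.81 (adjusted p = 0.00511). The 3 that fell were Olfr513, Olfr566 and Olfr1024, and Olfr1024 had no count in any P14 library. The vomeronasal receptors, whose neurons lie outside this epithelium, had medians of 0.80 over 83 type 1 genes and 0.74 over 70 type 2 genes. Called higher were 9 (10.8%) and 12 (17.1%), and lower 1 (1.20%) and 2 (2.86%), against 23.5% and 22.2% of all genes tested. With the Gm10800-type share in the fit these medians were -2.06 and -1.96, with none called higher and 26 and 22 lower, and in Fzd1lacZ they were -1.05 and -0.87.

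**Figure D3:**
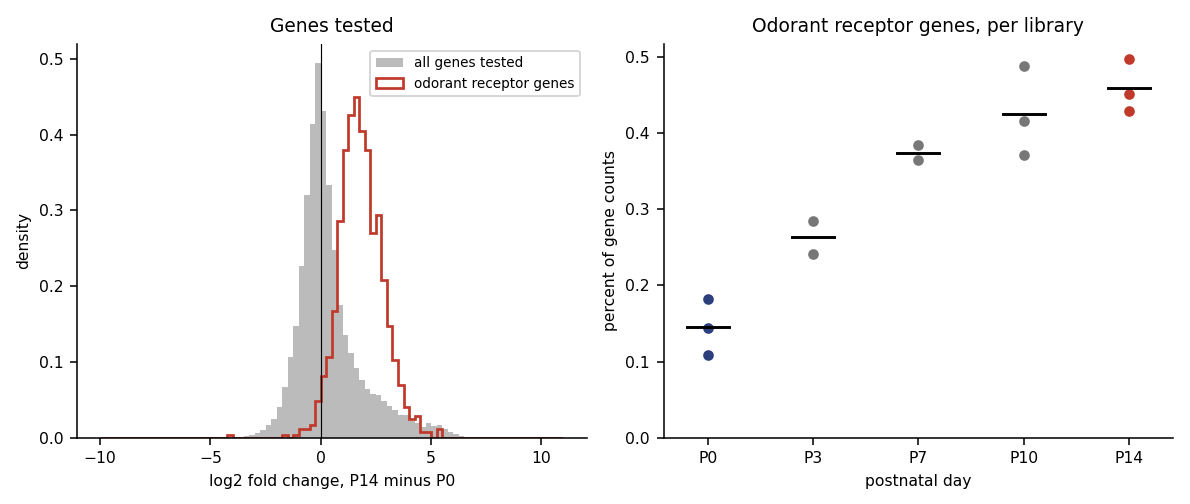
Left, the density of log2 fold changes of the 978 odorant receptor genes beside all 22144 genes tested. The receptor median is 1.75 and that of all genes 0.06. All genes include strongly expressed ones, while weakly expressed genes were called higher more often than lower. Right, the percent of gene counts that fell in receptor genes, per control library by age, with a bar at each mean, from 0.145% at P0 to 0.459% at P14.

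Markers of immature neurons changed less. Of 12 tested, 7 rose and none fell, with a median of 0.602, which was -0.02 in limma on log2(TPM + 1), where none passed. Gap43, a growth cone protein, had 159.9, 184 and 193 CPM at P14, against 120.3, 96.2 and 54.9 CPM at P0, a change of 0.98 (SE 0.26) that did not pass without both libraries that hold RNA of both sexes (edgeR adjusted p = 0.0881). Tubb3, a neuronal tubulin, and Stmn2, a stathmin, rose by 1.23 and 1.101. Dpysl3, Dcx, Ncam1, Dbn1 and Cxcr4 did not pass. Gap43 peaked between the ages, at 90.5, 169.9, 261, 229.8 and 179 CPM at P0, P3, P7, P10 and P14.

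Among 11 genes of globose basal cells and neuronal progenitors, 4 rose (36.4%) and 3 fell (27.3%), against 23.5% and 22.2% of all genes tested. The list median was 0.36, or -0.19 in limma on log2(TPM + 1). Kit, a receptor tyrosine kinase of progenitors, had 25.9, 23.3 and 27.8 CPM at P14, against 86.2, 82.7 and 102 CPM at P0, a change of -1.81 (SE 0.16, edgeR adjusted p = 3.26e-13), and its ages do not overlap. Lgr5, a stem cell receptor, and Ezh2, a histone methyltransferase, fell, at -0.63 and -0.31. Neurog1, which specifies neuronal progenitors, was at 6.93, 5.74 and 4.48 CPM at P14, against 4.66, 4.79 and 2.95 CPM at P0 and did not pass (edgeR adjusted p = 0.293). The calls of Insm1, Neurod1 and Sox11, at 0.55, 0.503 and 0.499, were lost when single libraries were left out, and Neurod2 was called at a mean under 2 CPM.

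Genes of the cell cycle fell together. Of 22 tested, 20 fell and none rose, with a median of -1.27, and Pcna and Ccne2 did not pass, at -0.27 and -0.504 (edgeR adjusted p = 0.218 and 0.0631). Mki67, the proliferation antigen Ki-67, had 116, 114 and 119.8 CPM at P14, against 461, 399 and 436 CPM at P0, a change of -1.89 (SE 0.18, edgeR adjusted p = 1.07e-12). Mcm6, a subunit of the replicative helicase, had 26.4, 24.7 and 26.9 CPM at P14, against 105, 94.3 and 93.4 CPM at P0, a change of -1.903 (SE 0.17). Rrm2, a subunit of ribonucleotide reductase, fell, at -2.02, Top2a, a DNA topoisomerase, at -1.19, Cdc20, an activator of the anaphase-promoting complex, at -1.29, and Ccnb2, a mitotic cyclin, at -1.299. None of these overlapped between the ages. Summed over the list, levels were 678 to 753 CPM at P14 and 1627 to 1924 CPM at P0.

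Promoters of 18 of these genes were found in RefSeq (GRCm38.p6, 250 bases before to 50 after a start), with 19 entries. The NF-Y box CCAAT, or ATTGG on the other strand, is in 17 of the 19 (89.5%), against 37.4% of 32851 promoters of all genes. The CHR element TTTGAA, or TTCAAA on the other strand, which is known from mitotic genes, is in 8 of the 19 (42.1%), against 17.9% of all. A match of letters is a description and does not show a bound site. Both elements are in capitals in the following promoters of 3 genes that fell, shown because each holds both elements and more than 1 NF-Y box (minus strand of chr9:70421505-70421804, chr4:118437294-118437593 and chr7:135716330-135716629), each 5′ to 3′.
Ccnb2: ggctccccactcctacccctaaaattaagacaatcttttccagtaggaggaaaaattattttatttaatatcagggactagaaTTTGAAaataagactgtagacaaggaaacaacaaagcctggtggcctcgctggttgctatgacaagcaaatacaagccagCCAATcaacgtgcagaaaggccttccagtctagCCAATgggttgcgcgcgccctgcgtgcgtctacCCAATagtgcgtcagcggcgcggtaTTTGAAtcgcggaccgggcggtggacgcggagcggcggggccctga
Cdc20: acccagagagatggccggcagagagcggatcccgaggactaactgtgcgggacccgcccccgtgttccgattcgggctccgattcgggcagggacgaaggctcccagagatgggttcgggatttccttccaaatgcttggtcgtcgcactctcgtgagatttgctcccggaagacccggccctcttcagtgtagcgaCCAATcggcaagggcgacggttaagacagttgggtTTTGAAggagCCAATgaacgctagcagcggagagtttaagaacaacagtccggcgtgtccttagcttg
Mki67: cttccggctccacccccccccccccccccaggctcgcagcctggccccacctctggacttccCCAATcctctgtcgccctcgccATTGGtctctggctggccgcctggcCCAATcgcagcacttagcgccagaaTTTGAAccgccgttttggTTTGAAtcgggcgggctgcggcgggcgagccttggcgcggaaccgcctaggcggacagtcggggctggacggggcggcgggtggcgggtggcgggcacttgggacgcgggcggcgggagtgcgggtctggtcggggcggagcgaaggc

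Among horizontal basal cell markers 8 of 10 fell and Aqp3, a water and glycerol channel, rose by 0.96. Krt15, a keratin of basal cells, had 77.7, 38.5 and 28.3 CPM at P14, against 166, 216 and 129 CPM at P0, a change of -1.82 (SE 0.42). Cav1 (caveolin 1) and Itgb4 (integrin beta 4) fell, at -1.94 and -1.85. The basal keratins Krt5 and Krt14 and the transcription factor Trp63 fell, at -0.88, -0.75 and -0.88. The ages do not overlap for Krt15, Cav1 or Itgb4. Adh7 did not pass, at -0.504.

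Markers of respiratory and ciliated epithelium fell in 9 of 12 cases and rose in none, with a median of -0.74. In the control with DOX the median was -0.16, with 3 lower and 1 higher, and in Fzd1lacZ -0.12, with 2 lower. Dnah5, an outer-arm dynein of motile cilia, had 272, 229 and 183 CPM at P14, against 1144, 1747 and 1879 CPM at P0, a change of -2.802 (SE 0.32, edgeR adjusted p = 3.55e-10). Mcidas, a regulator of multiciliated cells, had 3.34, 3.04 and 1.89 CPM at P14, against 13.4, 11.9 and 10.1 CPM at P0, a change of -2.11 (SE 0.295), while Foxj1, the transcription factor of motile cilia, did not pass at -0.26 (edgeR adjusted p = 0.358). Summed levels were 812 to 1024 CPM at P14 and 1969 to 2990.4 CPM at P0. Among microvillar cells and ionocytes 7 of 10 genes rose. With the Gm10800-type covariate 4 were called higher, as were 4 without both libraries that hold RNA of both sexes. Coch, the member with the highest level, was at 320.2, 359 and 349.5 CPM at P14, against 130.4, 123 and 126 CPM at P0. Cftr, the chloride channel of ionocytes, fell, at -0.39. The call of Cftr was lost on log2(TPM + 1), with the Gm10800-type covariate and without both libraries that hold RNA of both sexes. Trpm5, the channel that defines a class of microvillar cells, did not pass at -0.21, and Chat and Sh2d6 had calls at under 5 CPM that reversed or were lost under other processing.

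Genes of fetal growth and imprinted genes fell in 15 of 18 cases, with a median of -1.78. H19 (chromosome 7, 142575529 to 142578143), a maternally expressed long non-coding RNA, had 81.6, 54.03 and 57.8 CPM at P14, against 839, 1119 and 685 CPM at P0, a change of -3.77 (SE 0.29, edgeR adjusted p = 1.91e-15). Igf2bp3, a fetal RNA-binding protein, had 3.34, 3.38 and 3.54 CPM at P14, against 31.6, 31.9 and 39.1 CPM at P0, a change of -3.31 (SE 0.26, edgeR adjusted p = 2.54e-15). The long non-coding RNAs Rian and Meg3, from the same imprinted cluster on chromosome 12, fell, at -2.95 and -2.51. Grb10, an imprinted adaptor of growth factor receptors, fell, at -2.08, and Peg3, a paternally expressed zinc finger gene, at -1.66. In H19, Igf2bp3, Rian, Meg3, Grb10 and Peg3 all P14 libraries were below all P0 libraries. Mycn and Igf2bp1 did not pass. Lin28b was called higher at 2.88, from 2.57, 3.38 and 2.59 CPM at P14, against 0.565, 0.309 and 0.174 CPM at P0, and was at -1.34 with the Gm10800-type covariate (edgeR adjusted p = 0.22).

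In the Wnt pathway 12 of 23 genes fell and Wnt7b, a ligand, rose by 0.67. The secreted members Rspo3, an R-spondin that strengthens Wnt signals, and Sfrp2 and Sfrp1, secreted inhibitors, fell, at -2.17, -1.63 and -1.35. Among receptors Ror2 and Fzd6 fell, at -1.24 and -1.11, and the co-receptors Lrp5 and Lrp6 at -0.96 and -0.83. Axin2, a transcriptional target of the pathway, fell to 21.04, 20.6 and 20.99 CPM at P14, against 37.3, 38.8 and 35.6 CPM at P0. Fzd1, the receptor that the other genotypes of the series alter, had 25.9, 20.9 and 23.3 CPM at P14, against 38.99, 38.2 and 44.3 CPM at P0. Its ages do not overlap, but its change of -0.78 (SE 0.45) did not pass (edgeR adjusted p = 0.146). The spread behind this SE was estimated over all 72 libraries, which include the genotypes that alter Fzd1. The part of those libraries in this result was not tested.

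Of 20 genes of axon guidance and sorting, 6 rose (30%) and 3 fell (15%), against 23.5% and 22.2% of all genes tested. The list median was 0.19, and -0.47 in limma on log2(TPM + 1). Sema7a, a membrane semaphorin, had 64.4, 63.5 and 65.6 CPM at P14, against 19.5, 12.1 and 14.1 CPM at P0, a change of 2.08 (SE 0.25, edgeR adjusted p = 1.37e-09). Efna3, an ephrin, Ncam2, an adhesion molecule of olfactory axons, and Kirrel2, an adhesion molecule whose level depends on neuronal activity, rose by 2.11, 1.76 and 1.66. Pcdh10, a protocadherin, rose by 1.23 and Nphs1 (nephrin) by 1.09. Tenm4, a teneurin, had 85.96, 88.8 and 87.3 CPM at P14, against 202, 197 and 226 CPM at P0, a change of -1.25 (SE 0.16). Nrp1, Nrp2, Plxna1, Plxna3, Robo1 and Robo2, receptors of guidance cues, did not pass.

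Markers of tissue beneath the epithelium were measured too, and moved with age. Bone genes rose in 7 of 10 cases and fell in 1, with summed levels of 276 to 346 CPM at P14 and 79.5 to 127 CPM at P0. Spp1 (osteopontin) had 88.3, 128 and 114 CPM at P14, against 10.9, 14.1 and 5.73 CPM at P0, a change of 3.41 (SE 0.41, edgeR adjusted p = 1.40e-09), and Bglap (osteocalcin) had 7.95, 9.79 and 7.55 CPM at P14, against 0, 0.464 and 0 CPM at P0, a change of 5.53 (SE 0.76), with 51.3% of its 50-base stretches shared with Bglap2. Cartilage genes fell in 6 of 15 cases and rose in 1, with 8 not called. Among those that fell was Col2a1, the main cartilage collagen, at 17.2, 15.5 and 13.7 CPM at P14, against 63.7, 121 and 55.7 CPM at P0, a change of -2.37 (SE 0.297). The calls of Acan and Hapln1 were lost without P0 replicate 2, at -0.699 (edgeR adjusted p = 0.0575) and -1.05 (adjusted p = 0.0586). Endothelial genes fell in 7 of 8 cases and rose in 1, with summed levels of 72.2 to 84.4 CPM at P14 and 125 to 198 CPM at P0. The fibroblast and matrix list was split, with 4 higher, among them Dcn (decorin) at 1.11, and 4 lower, among them Fbn2 (fibrillin 2), at 21.8, 19.6 and 19.3 CPM at P14, against 183, 299 and 287 CPM at P0, and Fn1 (fibronectin) at -1.58. The 4 higher and 4 lower are 28.6% each, against 23.5% and 22.2% of all genes tested. On log2(TPM + 1) none of this list was called higher and 7 lower, and Dcn was at 0.52 (limma adjusted p = 0.202). The part of these tissues in the other results was not tested.

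In the control with DOX the same tissues differed otherwise. There cartilage had a median of -3.47 with 15 of 15 genes lower at P14 than at P1, bone a median of -0.14, and fibroblast and matrix genes -1.37. In Fzd1lacZ, P14 against P0, the medians were -1.001, 2.25 and 0.79. Cell cycle genes had medians of -1.34 with DOX and -0.51 in Fzd1lacZ, and mature neuron genes 1.94 and 1.12.

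Olfactory ensheathing glia, which wrap the axons, had 6 of 11 genes higher and 3 lower. On log2(TPM + 1) 1 was higher and 3 lower, and in the control with DOX 1 was higher and 5 lower, with a median of -0.55 against 1.07 here. Fabp7, a fatty acid binding protein of glia, had 113, 125 and 137 CPM at P14, against 25.8, 34.6 and 29.7 CPM at P0, a change of 2.06 (SE 0.41, edgeR adjusted p = 4.75e-05), while Sox10, Ngfr and Erbb3, which mark neural crest glia and their precursors, fell, at -1.05, -0.92 and -0.796. Genes of antigen presentation by MHC class II rose in 6 of 7 cases, with summed levels of 65.8 to 74.2 CPM at P14 and 10.9 to 23.5 CPM at P0. H2-Ab1, a class II chain, had 12.3, 13.2 and 10.6 CPM at P14, against 1.13, 2.94 and 1.56 CPM at P0, a change of 2.66 (SE 0.44, edgeR adjusted p = 1.39e-06), and Cd74, the invariant chain, had 19.2, 16.9 and 14.6 CPM at P14, against 4.803, 6.96 and 2.43 CPM at P0. All P14 libraries of both were above all P0 libraries. Of 10 macrophage genes 2, Csf1r and Mrc1, were called lower (20%, against 22.2% of all genes tested) and none higher. Csf1r did not pass in DESeq2 (adjusted p = 0.0641), and with the Gm10800-type share in the fit neither passed, 2 macrophage genes were called higher and none lower. In Fzd1lacZ 3 were higher and none lower.

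Without both libraries that hold RNA of both sexes, 17 of 18 mature neuron genes, 17 of 30 xenobiotic genes, 8 of 11 sustentacular genes and 11 of 17 secretory genes were called higher, and 20 of 22 cell cycle genes and 14 of 18 fetal growth genes lower. For immature neurons 4 of 12 were then called higher, for progenitors 1 of 11 higher and 1 lower, for horizontal basal cells 5 of 10 lower, for ciliated epithelium 7 of 12 lower, and for odorant receptors 498 of 978 higher and none lower. In limma on log2(TPM + 1), 13 of 18 mature neuron genes, 8 of 30 xenobiotic genes (with 4 lower), 3 of 11 sustentacular genes, 9 of 17 secretory genes and 1 of 10 microvillar and ionocyte genes were called higher, and 21 of 22 cell cycle genes and 15 of 18 fetal growth genes lower. With the Gm10800-type share in the fit as a covariate, 5 of 12 ciliated genes and 5 of 10 horizontal basal cell genes were called lower, against 9 and 8 without it.

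Levels at the intermediate ages are given next, where age cannot be told apart from ID series or from the make-up of the libraries. Rising genes of glands and supporting cells climbed through P7 and P10, with Obp2b at 11.5, 5.43, 214, 461 and 1763 CPM at P0, P3, P7, P10 and P14. Cyp2g1 stood at 702, 1462, 1979, 2788 and 3483 CPM at P0, P3, P7, P10 and P14. Lcn4 was late, at 0.1502, 0.4895, 3.69, 29.2 and 263 CPM at P0, P3, P7, P10 and P14. Among falling genes Bpifb5 was at 3820.0, 703, 118, 106 and 69.05 CPM at P0, P3, P7, P10 and P14. Its P3 libraries stood far apart, at 29.2 and 1378 CPM. Dnah5 fell early, at 1589.8, 469, 356, 288 and 228 CPM at P0, P3, P7, P10 and P14. Mki67 was at 432, 463, 204, 179 and 117 CPM at P0, P3, P7, P10 and P14, so its P3 mean was not below that of P0. H19 and Olfm5 declined over the whole period, with H19 at 881, 617, 305, 116 and 64.5 CPM at P0, P3, P7, P10 and P14. These values are means of 3, 2, 2, 3 and 3 libraries and were not tested between neighbouring ages. Titles of the P3, P7 and P10 libraries carry other ID series than those of P0 and P14. The P7 and P10 libraries held 1695 to 2929 counts of Xist beside 3 to 12 Y-linked counts. The Gm10800-type family held 14.6% to 32.7% of their gene counts. The part of sex and of this share in the course over age was not tested.

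**Figure D4:**
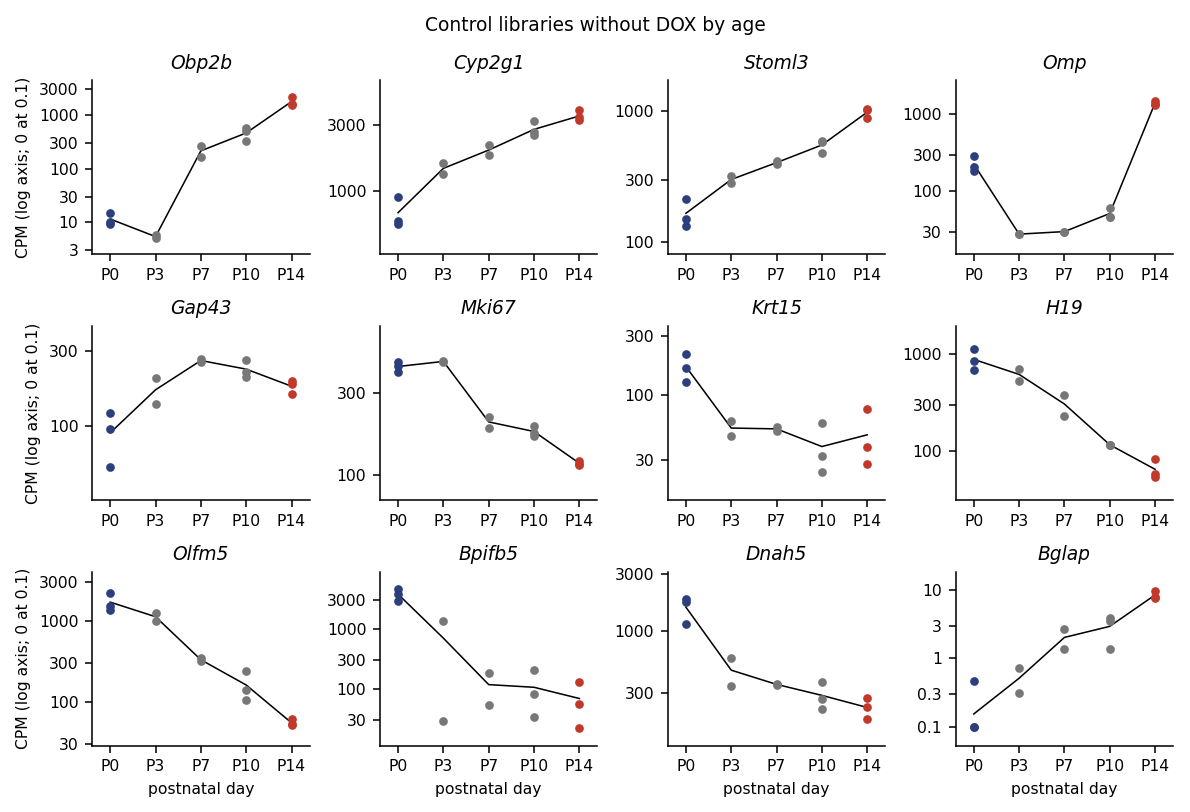
CPM of 12 genes in every control library without DOX by postnatal day, on log axes with 0 drawn at 0.1, with a line through the means. Stoml3 and Cyp2g1 rise at each step, Omp is lowest at P3, Krt15 and Dnah5 are lower from P3 on, and Mki67 falls after P3.

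The control with DOX and Fzd1lacZ share no library with this comparison. Of 136 named genes called here with a mean of at least 5 CPM, 123 had the same sign between P14 and P1 in the control with DOX and 112 of these were called there, where 17.1% of all genes were called higher and 20.7% lower. In Fzd1lacZ 127 had the same sign and 93 of these were called, where 11.5% were called higher and 11% lower. Of the named genes that rose here, 5 (Col11a2, Dbp, S100b, Tsc22d3 and Zbtb16) were called lower with DOX and 2 (Neurod1 and Zbtb16) in Fzd1lacZ. Of the 900 genes with at least a 2-fold rise and 5 CPM, 760 (84.4%) were also called higher with DOX and 652 (72.4%) in Fzd1lacZ. Of the 1495 with such a fall, 1172 (78.4%) and 966 (64.6%) were called lower. Without the limits on size and level the shares were lower: of all 5207 genes called higher, 2296 (44.1%) were called higher with DOX and 1749 (33.6%) in Fzd1lacZ. Mup5 did not rise with DOX, at -2.13 (edgeR adjusted p = 0.276), nor pass in Fzd1lacZ, at 2.02 (adjusted p = 0.175). Lcn4 did not pass in Fzd1lacZ, at 2.69 (adjusted p = 0.14).

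**Figure D5:**
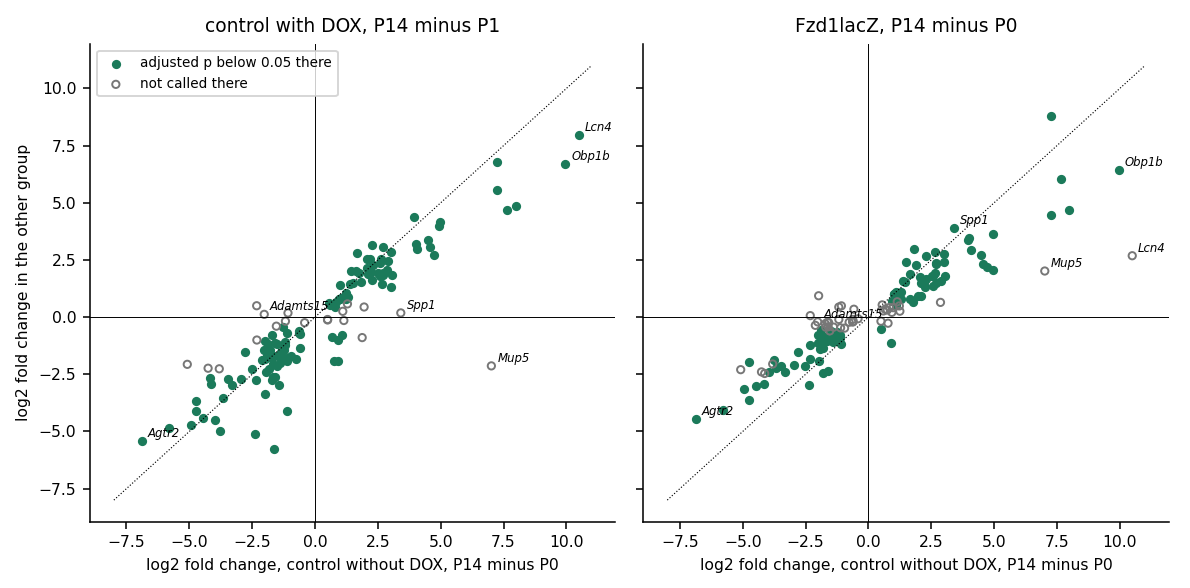
Log2 fold changes of 136 named genes in the control without DOX (horizontal) against those in the control with DOX, P14 minus P1 (left), and in Fzd1lacZ, P14 minus P0 (right). Filled points passed the test in the other group, the dotted line marks equal change, and 123 and 127 of the points share a sign on left and right.

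Libraries of control and Fzd1lacZ differed in make-up. At P0 the Gm10800-type family held 9.28% to 13.4% of gene counts in Fzd1lacZ and 0.0540% to 0.678% in control. Reads in genes were then 24.0% to 26.7% of all reads in Fzd1lacZ and 38.1% to 46.8% in control. At P14 the family held 5.03% to 34.2% in Fzd1lacZ and 7.36% to 15.2% in control. The difference between control and Fzd1lacZ in the change from P0 to P14 was tested as an interaction. It called 344 genes more positive in control (1.55%) and 442 more negative (2%). These counts depend on single libraries. They were 212 and 378 without P14 replicate 1, 79 and 127 without P14 replicate 2, 119 and 139 without P14 replicate 3, 57 and 123 without P0 replicate 2, 106 and 170 without P0 replicate 3, and 18 and 26 without both libraries that hold RNA of both sexes. Once the family's share entered the fit, 96 genes were called more positive in control and 45 more negative. What part of the interaction comes from library make-up was not tested. Of the cell cycle genes, Mcm6 differed by -1.35 (edgeR adjusted p = 0.00174), having changed by -1.903 in control and -0.55 in Fzd1lacZ.

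Genes at low levels behaved differently from the rest. Among genes with a mean under 5 CPM, 2686 of 8775 (30.6%) were called higher and 594 (6.77%) lower, against 2521 of 13369 (18.9%) and 4315 (32.3%) above that level. The 1140 long intergenic non-coding RNA genes had a median of 1.61, or -0.48 once the Gm10800-type share entered the fit as a covariate. Skeletal muscle genes, with summed levels of 12.03 to 14.9 CPM at P14 and 2.95 to 6.36 CPM at P0, had a median of 1.77, or -0.27 with that covariate. The share of reads in genes was lower and the Gm10800-type share higher at P14, and their part in these low-level rises was not tested.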

How the data were processed

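RNA of olfactory epithelium was extracted with TRIzol and made into libraries with TruSeq Stranded Total RNA and Ribo-Zero Gold, per the labels' protocols. The submitters' processing notes name bcl2fastq 2.18, STAR 2.6.1c, RSEM and the build mm10. The annotation used for counting, and whether counting used strand, are not given in the sources used here. The authors deposited whole-number counts of reads per gene and, in a second table, TPM values scaled for length and depth within each library. Rows of reads outside genes were left out of library sizes, and these reads made up 53.2% to 76.9% of all reads in the 6 libraries.

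Counts of all 72 libraries were fitted with edgeR 4.0.16 (R 4.3.3): genes were kept by filterByExpr, scaled by TMM, and tested with the quasi-likelihood F test with 1 term per group, adjusted by Benjamini-Hochberg over 22144 genes. All groups entered so that they share 1 estimate of the spread. The share of odorant receptor counts was compared by an exact permutation test. Gene coordinates and types came from GENCODE M21, matched for 99.8% of 54532 IDs, and 50-base stretches from its transcripts. On simulated data of 19073 genes for P14 against P0, 64 of 66 genes set to a log2 change of 2 were called, 28.4% of those set to 1, and 4 of 18873 unchanged genes. The simulation gave all genes 1 dispersion (spread beyond counting noise) of 0.05 and changed 200 genes, none of them weakly expressed. It held no difference in library make-up or ID series, so it does not show the rate of false calls in the real data.

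Named genes were the 15 largest rises and falls among called genes with a mean of at least 5 CPM, ages that do not overlap and a symbol that is no predicted name, clone name or receptor; from each list up to 5 called members by size with at least 1 CPM and further members that define it; up to 6 genes by smallest p for the difference from Fzd1lacZ; and the 4 odorant receptors of highest mean. Additional receptors called lower, and list members given only by their call, are named beside their counts. Some genes that fall under the rule are not reported here. The gene lists, the comparison and the rule were chosen with earlier results of these data known. Alternatives were DESeq2 1.42.0, its size factors, other filters, fewer libraries, limma 3.58.1 on log2(TPM + 1) and log2(TPM + 0.1), the Gm10800-type family left out or as a covariate, each of the 6 libraries left out and, chosen after seeing the data, both libraries with counts of Xist and Y-linked genes left out. Totals of 3092047 to 6774918 gene counts in the 6 libraries limit the precision of weakly expressed genes.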

Additional observations from a re-analysis of the deposited data

Results flagged for a closer look

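In all, 6 of the 22144 genes are given here because their change between P14 and P0 differed between control and Fzd1lacZ by edgeR's test of the interaction, with the smallest p among genes whose symbol is not a predicted or clone name. The value for each is the log2 fold change in control minus that in Fzd1lacZ. Adamts15, a secreted metalloprotease, differed by -1.814: it had 16.2, 15.9 and 16.04 CPM at P14, against 61.6, 54.4 and 79.3 CPM at P0 in control, and changed by -0.205 in Fzd1lacZ and by 0.12 between P14 and P1 in the control with DOX. The control P3, P7 and P10 means were 18.5 CPM at P3, 17.01 CPM at P7 and 16.1 CPM at P10, so the 3 P0 libraries stood apart from all other control libraries. Trim12a (chromosome 7, 104299894 to 104315466) differed by -5.126, at 0.257, 0.338 and 0.236 CPM at P14, against 4.096, 5.41 and 15.6 CPM at P0 in control, with no count at P3, P7 or P10. Mcm6 differed by -1.349 and Tk1, a thymidine kinase of the cell cycle, by -1.424, having changed by -1.71 in control and -0.29 in Fzd1lacZ. Sema3d, a secreted semaphorin, differed by -1.618, having changed by -1.18 in control and 0.44 in Fzd1lacZ. Spink5, a protease inhibitor of epithelia, differed by 5.392: it had 15.9, 4.73 and 2.59 CPM at P14, against 0.706, 0.773 and 0.347 CPM at P0 in control, with P14 replicate 1 far above the others, and changed by -1.79 in Fzd1lacZ (adjusted p = 0.0376). The P0 libraries of control and of Fzd1lacZ carry different ID series in their titles, and these cannot be told apart from genotype. Those P0 libraries also differed in the Gm10800-type share and in the share of reads in genes, as given above.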

How the results depend on the processing

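Of the 10116 genes called between P14 and P0, those also called under the alternatives kept their direction, except 6 of 5833 with the Gm10800-type share in the fit (the covariate). Leaving out each library gave 3942 to 4386 genes higher and 4086 to 4639 lower. The count of higher calls moved by over 1.5 times in limma on log2(TPM + 1), with 857 higher, on log2(TPM + 0.1), with 1062 higher, and without both libraries with RNA of both sexes, with 3427 higher. Higher with at least a 2-fold change were 2023 in the fit of 6 libraries, 278 and 1010 on log2(TPM + 1) and log2(TPM + 0.1), 1808 with the covariate and 1948 in the control with DOX, and 4961 were lower on log2(TPM + 0.1). In Fzd1lacZ, 1405 were lower with no filter, 245 higher and 7524 lower on log2(TPM + 1), and 166 and 6530 on log2(TPM + 0.1). In the control with DOX these were 489 and 9317, and 438 and 8671. The difference of control from Fzd1lacZ gave 57 to 388 higher and 123 to 581 lower with single libraries left out, 517 higher in DESeq2, 1197 and 741 with no filter, 7 and 5 on log2(TPM + 1), 5 and 3 on log2(TPM + 0.1), 1074 lower with the family left out, 96 and 45 with the covariate, and 18 and 26 without both libraries. The rise in the share of odorant receptors, 0.314 percentage points, was 0.368 without the family. The causes were not tested.

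Of 151 named genes called between P14 and P0, 26 lost their call with the covariate, 36 on log2(TPM + 1), 34 on log2(TPM + 0.1), 20 without both libraries and 2 in DESeq2. Signs turned on log2(TPM + 1) for Neurod1 (-0.00161), Sh2d6 (-0.21), Myh3 (-0.0229), Slc4a1 (-0.11) and Gnao1 (-0.0620), on log2(TPM + 0.1) for Sh2d6 (-0.42), Myh3 (-0.16), Slc4a1 (-0.42) and Gnao1 (-0.0665), and with the covariate for Chat (-1.50), Myh3 (-0.11) and Lin28b (-1.34). No paired analysis was possible because the labels carry no replicate numbers.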

Other observations

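Other gene groups were measured in the same comparison of P14 with P0, where 23.5% of all genes tested were called higher and 22.2% lower. Among 13 genes of the circadian clock 4 fell, Per1, Per2, Per3 and Clock, and Dbp rose, which was at -0.88 in the control with DOX (edgeR adjusted p = 6.19e-04). Per3, a period gene, had 28.99, 35.8 and 28.1 CPM at P14, against 78.5, 57.2 and 106 CPM at P0, a change of -1.38 (SE 0.24, edgeR adjusted p = 3.54e-06), and P0 replicate 3 was the highest library. Per2 did not pass without that library, at -0.31 (edgeR adjusted p = 0.277). Per1, Clock and Dbp each lost the call without at least 1 single library. Of 14 interferon response genes Ifit1 and Ifit2, antiviral RNA-binding proteins, rose by 1.51 and 1.03 and Usp18 fell, at -1.07. Ifit1 and Ifit2 did not pass in limma on log2(TPM + 1), at 0.598 (adjusted p = 0.0628) and 0.09 (adjusted p = 0.754), nor Usp18 with the Gm10800-type covariate, at -0.54 (edgeR adjusted p = 0.196). Tsc22d3, a target of the glucocorticoid receptor, rose by 0.93 in control without DOX, and was at -1.02 in the control with DOX between P14 and P1 (edgeR adjusted p = 1.84e-04).

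Markers of the central nervous system were low, with summed levels of 174 to 199 CPM at P14 and 72.4 to 95.8 CPM at P0, and 4 of 9 rose. Slc1a2, a glutamate transporter of astrocytes, had 65.7, 82.7 and 77.8 CPM at P14, against 17.1, 10.98 and 19.4 CPM at P0, a change of 2.25 (SE 0.23, edgeR adjusted p = 1.51e-11), while Gfap, the filament protein of astrocytes, was at 1.796, 1.69 and 1.42 CPM at P14, against 0.424, 0.619 and 0.694 CPM at P0 and did not pass (edgeR adjusted p = 0.107). Eomes, a transcription factor of neuronal precursors in the brain, had 17.7, 16.5 and 19.6 CPM at P14, against 2.97, 2.63 and 2.604 CPM at P0, a change of 2.703 (SE 0.32), and its ages do not overlap. Of 5 vomeronasal markers tested, 3 fell and 1 rose. Among those that fell was Meis2, at 24.9, 32.8 and 31.6 CPM at P14, against 107, 118 and 128 CPM at P0. Calr4 also fell, at 2.82, 3.04 and 1.18 CPM at P14, against 12.9, 19.6 and 1.39 CPM at P0. The ages of Calr4 overlap, and it did not pass without P0 replicate 2, at -1.69 (edgeR adjusted p = 0.0606). The adult beta-globin gene Hbb-bt fell, at -1.98, and did not pass with the Gm10800-type covariate, at -0.56 (edgeR adjusted p = 0.365). Of its 50-base stretches 58.3% are shared with Hbb-bs, which did not pass at 0.34. Of 7 trace amine-associated receptors tested, 1 rose (14.3%, against 23.5% of all genes tested). Lymphocyte genes had summed levels of 15.1 to 23.9 CPM at P14 and 11.3 to 12.8 CPM at P0 and 4 of 6 were called higher, none of which held once the Gm10800-type share was in the fit.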
